A study of Homo sapiens with 8 samples.

Results

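Gene expression was compared between Karpas 299 cells given CD153-Fc together with T104 and cells given CD153-Fc without the antibody. The comparison took every array whose title named 1 of these treatments, which was 4 of the 8 arrays of the series, 2 per group. Karpas 299 is an established human cell line from an anaplastic large cell lymphoma, a T cell tumour, with the NPM1-ALK fusion kinase. CD153-Fc joins CD153, the natural ligand of CD30, to an antibody Fc part, and T104 is an agonistic monoclonal antibody against CD30. All cells were precultured for 16 h, and treatment then ran for 8 h in the used medium. The combination group received 10 µg/ml of CD153-Fc and 10 µg/ml of T104 in PBS, and the CD153-Fc group 10 µg/ml of the fusion protein. A T104 group received 10 µg/ml of the antibody and an untreated group neither protein. Each group had biological duplicates, hybridised to Illumina HumanHT-12 v3 expression arrays. The combination cells received more protein in all, and no group received an Fc part without ligand or an antibody of another specificity, so a response to added protein and a response to CD30 cannot be told apart. The question was what the antibody adds to cells that already have the ligand.

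CD30 is a receptor of the tumour necrosis factor (TNF) family without enzyme activity of its own. When ligand or antibody clusters it, it recruits TRAF adaptors and cIAP ubiquitin ligases, which release the NF-kB transcription factors by the canonical route and by the slower route through the kinase NIK. NF-kB then induces chemokines, cytokines and survival genes, together with the brakes that end its own signal, such as NFKBIA and TNFAIP3.

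The files gave 48797 probes per array. Between 10713 and 12967 of them were detected, with 10755 and 10713 on the combination arrays and 11710 and 12493 on the CD153-Fc arrays. Duplicates correlated at r = 0.992 with the combination and r = 0.993 with CD153-Fc over the 10183 features tested. Differences between duplicates had an SD of 0.26 log2 with the combination, 0.24 with CD153-Fc and 0.23 with T104, against 0.45 in untreated cells. Of 10 markers of anaplastic large cell lymphoma, 8 were detected on both arrays of every group, CLU on no array, and TNFRSF8, which encodes CD30, on 0 of 2 combination arrays and 1 of 2 CD153-Fc arrays. The TNFRSF8 values of 6.76 and 6.62 with the combination and 6.98 and 6.82 with CD153-Fc (log2 intensity) were therefore near background, and its change of -0.21 ± 0.25 log2 (SE) was not called. The ALK probe was bright and its change was not called (13.30 and 13.56 with the combination, 13.44 and 13.34 with CD153-Fc). Markers of B cells (MS4A1, CD79A), myeloid cells (CD14, LYZ) and natural killer cells (NCAM1, KLRD1) were among those detected on none of the 8 arrays. On both arrays of every group, 1 of 11 B cell, 4 of 14 myeloid and 1 of 10 natural killer cell markers were detected. The myeloid markers that passed the detection filter were CSF1R, CD68, S100A8 and S100A9, and none was called. EBF1 of the B cell list and CD68 of the myeloid list were detected on all 8, with changes of -0.38 ± 0.19 and -0.37 ± 0.19 that were not called, and a second CD68 probe changed by 0.20 ± 0.19. Array values are per unit of RNA, so a change in the number of responding cells and a change within each cell cannot be told apart.

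Adding T104 to the ligand was followed by higher levels of 19 features and lower levels of none. The 16 named genes among them were cyclin D2 (CCND2), 5 cytokine and chemokine genes (IL17F, CXCL8, EBI3, CXCL10 and CCL20), the receptor TNFRSF9, and 9 genes of signalling, metabolism and stress (IL4I1, RGS1, SOD2, TRAF1, HEY1, RGS2, NINJ1, DRAM1 and GADD45A). A call means an adjusted p under 0.05 by limma with Benjamini-Hochberg adjustment in a fit of all 8 arrays, and every later change is the log2 intensity of the combination minus that of CD153-Fc unless another pair is named. The 19 calls were 0.187% of the 10183 features, and 13 of them differed at least 2-fold. At an unadjusted p under 0.05, 428 features were higher and 390 lower, and the arrays of the groups did not overlap for 4626 features (45.4%). With 2 arrays per group, groups that do not overlap are thus common and are given below only as a description. The median change over all features was 0.00 log2 with quantile normalization and -0.11 with median scaling of the arrays.

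CCND2, which drives the entry into the cell cycle with its kinase partners, changed the most. Its log2 intensity was 9.18 and 9.68 with the combination, against 5.95 and 6.09 with CD153-Fc. It was detected on both combination arrays and on neither CD153-Fc array, so the 3.41 ± 0.22 log2 rise (SE, adjusted p = 1.104e-05 by limma, n = 2 arrays per group) is reported as at least 6.05-fold higher. With T104 and no ligand it lay at 9.92 and 10.13, against 5.17 and 5.27 in untreated cells, where it was not well above background. High CCND2 was thus seen on the 4 arrays with T104 and not on the 4 without it. A second CCND2 probe rose by 2.38 ± 0.29 log2 (adjusted p = 0.00314 over all probes by limma).

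The secreted factors formed the group with the most calls. Of 40 genes on a list of cytokines and chemokines, 37 had a probe, 13 passed the detection filter and 5 of these rose (38.5%, against 0.187% of all features), while none was called lower. The filter kept a gene detected on 2 arrays of any groups, so a gene silent without stimulation entered only through the groups where it was on, and this share is a description. IL17F, an inflammatory cytokine of the interleukin 17 family, had 8.22 and 8.00 log2 with the combination and 6.00 and 6.04 with CD153-Fc, where it was not well above background. It was at least 2.42-fold higher (2.09 ± 0.23 log2, adjusted p = 0.00181 by limma). CXCL8, which attracts neutrophils, had 12.93 and 12.74 with the combination and 10.77 and 11.38 with CD153-Fc. Already bright with the ligand, it rose a further 3.38-fold (1.76 ± 0.19 log2, adjusted p = 0.00181 by limma), and its second probe rose by 1.42 ± 0.22. EBI3, a subunit shared by the cytokines interleukin 27 and interleukin 35, had 9.27 and 9.24 with the combination and 7.85 and 7.74 with CD153-Fc, a rise of 1.46 ± 0.19 log2 (adjusted p = 0.00773 by limma). CXCL10, a chemokine for activated T cells, had 8.05 and 8.22 with the combination and 6.57 and 6.86 with CD153-Fc, where only 1 of 2 arrays detected it. It rose by 1.43 ± 0.22 log2 (adjusted p = 0.0194 by limma). CCL20, the ligand of CCR6, had the widest duplicates of the 5, at 8.71 and 9.38 with the combination and 7.89 and 7.62 with CD153-Fc. Its adjusted p of 0.0499 by limma lay just inside the threshold, at 1.29 ± 0.23 log2, and its call held in 3 of 11 other settings of the processing. In all 5 genes both combination arrays lay above both CD153-Fc arrays.

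**Figure D1:**
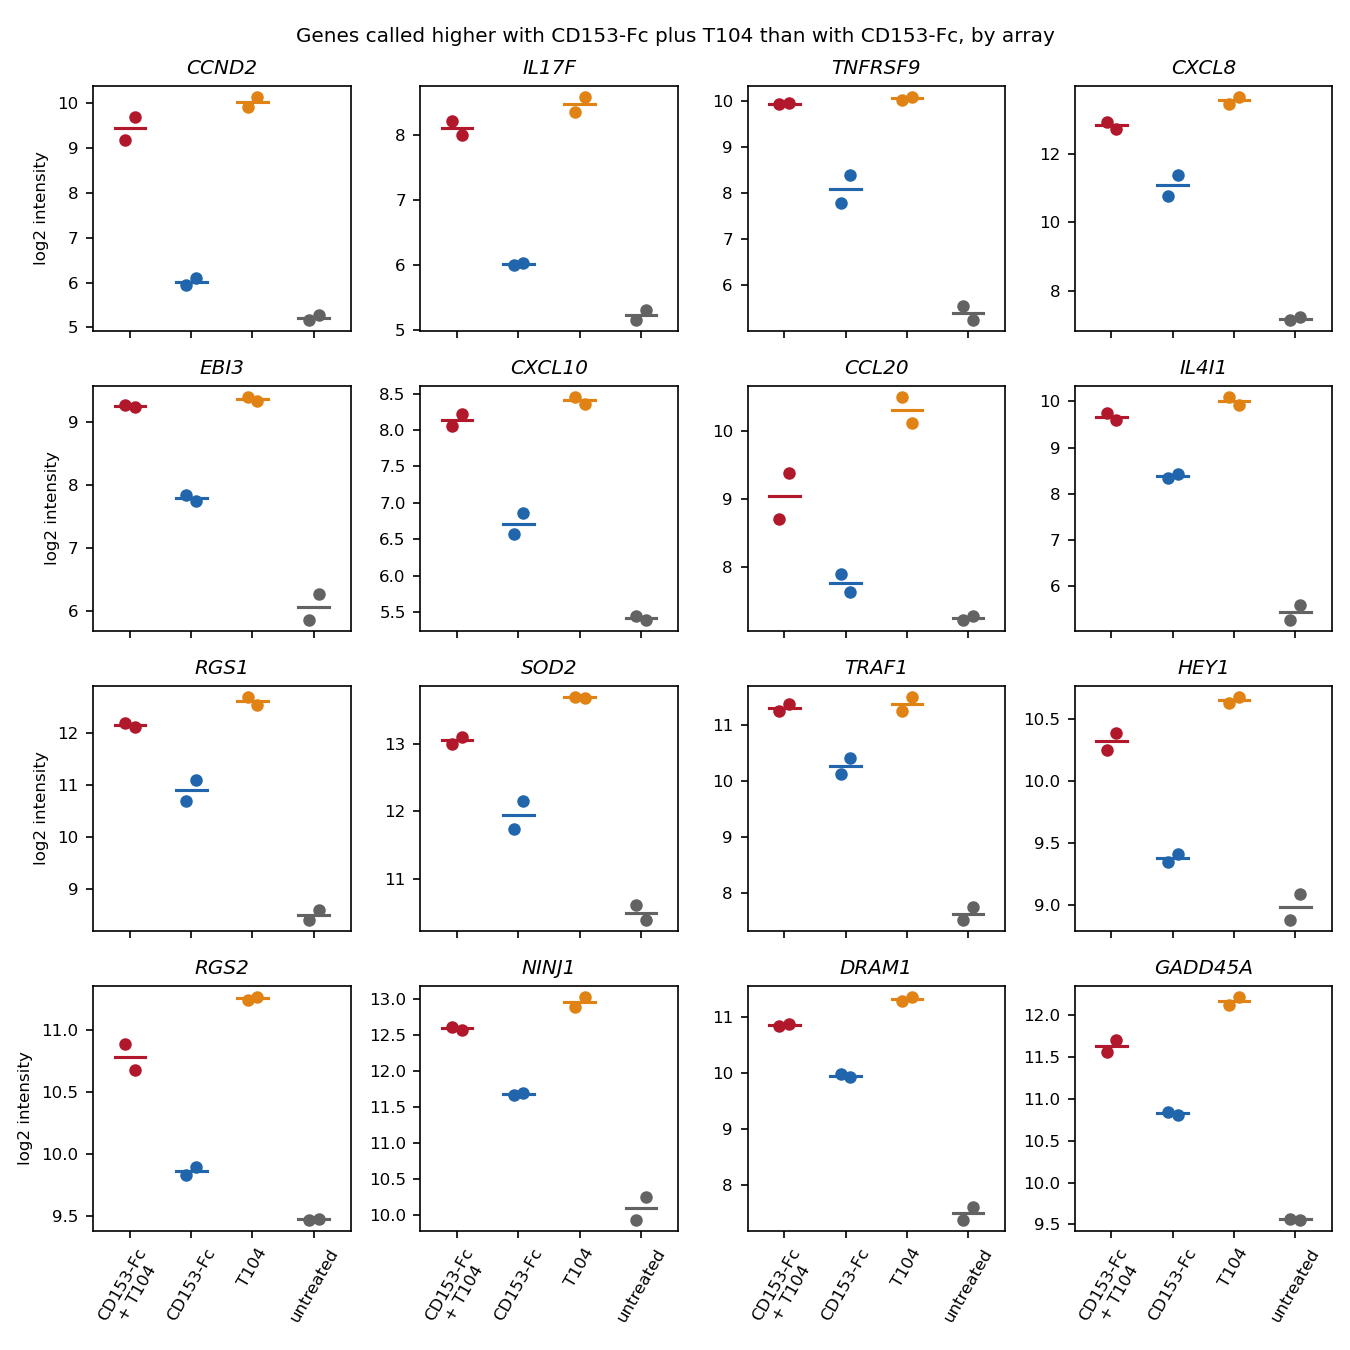
Log2 intensity (vertical axis, scale set per gene) of the 16 named genes called higher with CD153-Fc plus T104 than with CD153-Fc, on each of the 8 arrays; points are arrays and lines are means of 2. In every panel the combination arrays lie above the CD153-Fc arrays, and both CD153-Fc arrays lie above both untreated arrays.

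Promoter sequence is shown for the called genes whose window held the consensus of NF-kB or of AP-1, the factors that CD30 signalling is known to activate. RefSeq promoters of build GRCh38.p14 (250 bases before to 50 after the start) were found for 13 of the 16 genes, 18 promoters in all, and both strands were searched. The NF-kB consensus searched was GGGRNNYYCC, with R for A or G, Y for C or T and N for any base. It occurred in 5 of the 18 (27.8%), against 11.3% of all 35116 promoters of the table and 13.3% of those of the named genes tested. The AP-1 motif TGANTCA occurred in 3 (16.7%), against 7.71% and 5.08%. Each sequence below is the 250 bases before the start, 5′ to 3′ on the gene's strand, and capitals mark the NF-kB match, or the AP-1 match in CXCL8. They lie at chr2:227813592-227813841 (plus strand, CCL20), chr4:76023498-76023747 (minus, CXCL10), chr4:73740319-73740568 (plus, CXCL8), chr19:4229273-4229522 (plus, EBI3), chr1:192575523-192575772 (plus, RGS1) and chr1:7940840-7941089 (minus, TNFRSF9).
CCL20: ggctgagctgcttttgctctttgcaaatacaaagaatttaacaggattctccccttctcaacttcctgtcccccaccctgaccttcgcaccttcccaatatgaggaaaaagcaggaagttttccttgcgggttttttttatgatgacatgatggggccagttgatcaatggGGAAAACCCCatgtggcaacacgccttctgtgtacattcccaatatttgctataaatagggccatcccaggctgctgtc
CXCL10: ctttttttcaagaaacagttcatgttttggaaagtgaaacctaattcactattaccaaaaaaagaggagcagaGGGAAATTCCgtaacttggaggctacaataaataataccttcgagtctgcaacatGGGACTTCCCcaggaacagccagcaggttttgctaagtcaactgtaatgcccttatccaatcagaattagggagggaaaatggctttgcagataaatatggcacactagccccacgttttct
CXCL8: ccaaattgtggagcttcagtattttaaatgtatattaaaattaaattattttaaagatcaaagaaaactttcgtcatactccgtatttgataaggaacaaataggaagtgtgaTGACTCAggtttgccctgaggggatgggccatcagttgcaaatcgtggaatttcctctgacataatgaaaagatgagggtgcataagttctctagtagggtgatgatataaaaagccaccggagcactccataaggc
EBI3: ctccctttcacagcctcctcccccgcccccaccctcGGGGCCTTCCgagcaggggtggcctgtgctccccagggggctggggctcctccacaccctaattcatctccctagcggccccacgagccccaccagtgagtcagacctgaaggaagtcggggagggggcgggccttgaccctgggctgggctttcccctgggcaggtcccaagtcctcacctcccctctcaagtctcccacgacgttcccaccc
RGS1: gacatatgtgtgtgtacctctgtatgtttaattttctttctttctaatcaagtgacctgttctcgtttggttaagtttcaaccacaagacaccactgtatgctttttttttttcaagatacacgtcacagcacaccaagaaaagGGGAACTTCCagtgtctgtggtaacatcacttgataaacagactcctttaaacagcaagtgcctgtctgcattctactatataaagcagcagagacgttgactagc
TNFRSF9: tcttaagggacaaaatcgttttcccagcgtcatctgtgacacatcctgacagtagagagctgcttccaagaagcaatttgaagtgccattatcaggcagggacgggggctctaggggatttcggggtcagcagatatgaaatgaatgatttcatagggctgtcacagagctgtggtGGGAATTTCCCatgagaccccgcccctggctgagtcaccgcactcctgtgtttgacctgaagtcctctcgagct
The NF-kB matches began 79 bases before the start in CCL20, 177 and 122 in CXCL10, 214 in EBI3 and 106 in RGS1. In TNFRSF9, matches on the 2 strands began 74 and 73 bases before the start and overlap. AP-1 matches began 137 bases before the start in CXCL8, 118 in EBI3 and 44 in TNFRSF9. A match is a run of letters and was not tested for binding. Full matches alone were counted, so tggaatttcc in CXCL8, which differs from the NF-kB consensus at its first base, is not marked. The lack of a match therefore does not show the lack of an NF-kB site.

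Among receptors and signalling genes, TNFRSF9, TRAF1, RGS1 and RGS2 rose. TNFRSF9, a co-stimulatory receptor of activated T cells also called CD137, had 9.92 and 9.94 log2 with the combination and 7.79 and 8.39 with CD153-Fc. It rose 3.58-fold (1.84 ± 0.21 log2, adjusted p = 0.00300 by limma) and was the 1 member called of 16 tested on a list of the TNF receptor superfamily and its ligands. TRAF1, an adaptor of these receptors and itself an NF-kB target, had 11.25 and 11.39 with the combination and 10.13 and 10.41 with CD153-Fc. Its rise was 1.05 ± 0.17 log2 (adjusted p = 0.0288 by limma), and it was the 1 member called of 18 TRAF, cIAP and NIK pathway genes. Its second, dim probe changed by 0.72 ± 0.22 and was not called. RGS1 and RGS2, which shorten signals of G protein-coupled receptors such as chemokine receptors, were the 2 called of 24 genes tested on a list of cytokine and chemokine receptors and RGS proteins, so no receptor of that list was called. RGS1 had 12.18 and 12.11 with the combination and 10.69 and 11.09 with CD153-Fc (1.25 ± 0.17 log2, adjusted p = 0.00773 by limma). RGS2 had 10.89 and 10.68 with the combination and 9.84 and 9.90 with CD153-Fc (0.92 ± 0.15 log2, adjusted p = 0.0288 by limma). None of these pairs of groups overlapped.

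The remaining named calls were enzymes, stress genes and a repressor. IL4I1, a secreted amino acid oxidase, had 9.74 and 9.59 log2 with the combination and 8.35 and 8.42 with CD153-Fc (1.28 ± 0.18 log2, adjusted p = 0.0121 by limma). SOD2, the mitochondrial superoxide dismutase, had 13.00 and 13.10 with the combination and 11.74 and 12.15 with CD153-Fc. It rose by 1.11 ± 0.16 log2 and was the 1 call of 21 redox defence genes. GADD45A, a stress gene of cell cycle arrest, and DRAM1, a lysosomal protein that links p53 to autophagy, rose by 0.81 ± 0.14 and 0.90 ± 0.16 log2. GADD45A had 11.57 and 11.70 with the combination and 10.84 and 10.81 with CD153-Fc, and DRAM1 had 10.83 and 10.87 with the combination and 9.98 and 9.93 with CD153-Fc. HEY1, a transcriptional repressor known as a Notch target, and NINJ1, a membrane protein of lytic cell death, rose by 0.94 ± 0.16 and 0.92 ± 0.15 log2. A second GADD45A probe also rose, by 0.92 ± 0.16, whereas second probes of SOD2 (0.93 ± 0.23) and HEY1 (0.49 ± 0.27) did not pass. The 3 probes without a gene name, ILMN_2235851, ILMN_1706013 and ILMN_2405684, rose by 1.43, 1.17 and 0.91 log2.

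For 18 of the 19 called features the mean with the combination lay below the mean with T104 and no ligand. The mean with CD153-Fc lay above that of untreated cells, also for 18 of 19. Most of these 19 thus ran in the order untreated, CD153-Fc, combination, T104. The gap of T104 over the combination ranged from -0.15 to 1.26 log2. It was widest for CCL20, with 8.71 and 9.38 log2 with the combination and 10.49 and 10.12 with T104. It was small for TNFRSF9, with 9.92 and 9.94 with the combination and 10.02 and 10.07 with T104, and for TRAF1, with 11.25 and 11.39 with the combination and 11.26 and 11.50 with T104. These positions were not tested, because the groups share arrays with the comparison that chose the genes.

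**Figure D2:**
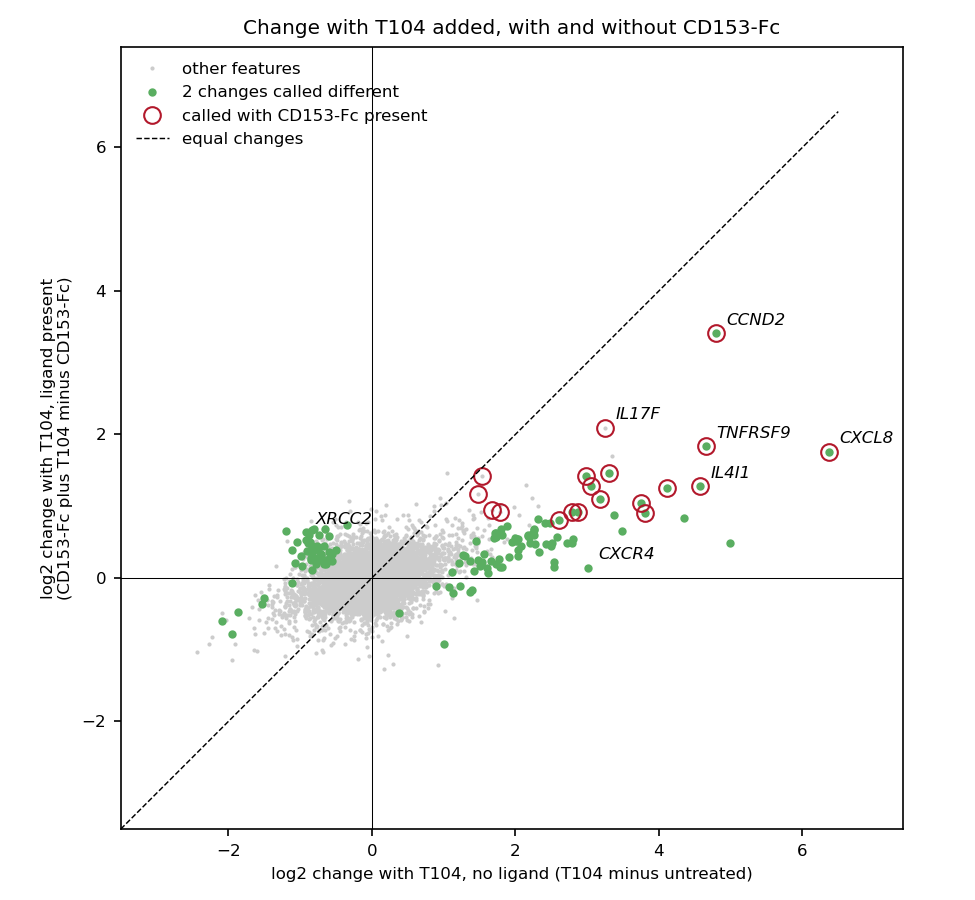
Log2 change of each of 10183 features with T104 when ligand was present (CD153-Fc plus T104 minus CD153-Fc, vertical axis) and when it was not (T104 minus untreated, horizontal axis); green marks features whose 2 changes were called different, rings mark the 19 features called with ligand present, and the dashed line marks equal changes. All 19 ringed points lie below the dashed line, and CXCL8 lies farthest from it among the labelled genes.

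The change that came with T104 could be set beside the change in cells without ligand, with which it shares no array. Without ligand, T104 was followed by 520 features higher (5.11%) and 551 lower (5.41%) than in untreated cells, 10.5% in all. Across all 10183 features the changes with and without ligand correlated at r = 0.43 (Spearman's rho = 0.32), a description across genes, which are not independent. All 19 features had the same direction in both settings and a smaller change with ligand, with median sizes of 1.25 log2 with ligand and 3.18 log2 without. Of all 10183 features, 6189 had the same direction and 6808 the smaller change with ligand. The difference between the changes was tested in the same fit. It was called for 136 features (1.34%), 53 above 0 (0.52%) and 83 below (0.815%), and 133 of the 136 had the larger change without ligand. CXCL8 differed by -4.62 ± 0.27 log2 (adjusted p = 1.795e-06 by limma), from a rise of 1.76 with ligand and 6.37 without. IL4I1 changed by 1.28 with ligand and 4.57 without, a difference of -3.29 ± 0.26 (adjusted p = 2.868e-05 by limma). CCND2 changed by 3.41 with ligand and 4.80 without (difference -1.39 ± 0.31, adjusted p = 0.0487 by limma). CCND2 was detected on no CD153-Fc array and no untreated array, with means of 6.02 and 5.22 log2. Its means were 9.43 with the combination and 10.02 with T104, so part of its difference lies between undetected levels. IL4I1 was also detected on neither untreated array. For IL17F, HEY1 and RGS2 the difference was not called, with adjusted p of 0.120, 0.156 and 0.0773 by limma. RELB, an NF-kB subunit of the NIK route, changed by 0.15 with ligand and 2.54 without, and CXCR4, the receptor of CXCL12, by 0.14 with ligand and 3.01 without. Both differences were called (adjusted p = 2.504e-04 and 2.292e-04 by limma). Mean RELB levels were 8.74 log2 in untreated cells, 10.85 with CD153-Fc, 11.00 with the combination and 11.29 with T104. Those of CXCR4 were 7.89, 10.54, 10.68 and 10.91 in the same order. Both genes thus already lay above untreated cells with CD153-Fc alone. The CXCR4 probes disagreed on the change with ligand, since a second, dimmer probe changed by 0.57 ± 0.22, which was not called with all 8 arrays and was called with the 6 treated arrays (adjusted p = 0.0370 over all probes by limma). Of the genes named by rule, XRCC2, a DNA repair gene, was the 1 with a called difference above 0, from 0.63 with ligand and -0.92 without (adjusted p = 0.0211 by limma). The untreated duplicates, which enter this difference, were the most uneven of the series.

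The number of calls depended on which arrays estimated the spread. With the 6 arrays of the treated groups in the fit, 178 features were called higher and 81 lower (1.75% and 0.795%, together 2.54% of 10183), and with the 4 arrays of the compared groups alone 134 and 64. All 19 features were called in both. Leaving out untreated replicate 1 gave 176 and 86, and leaving out untreated replicate 2 gave 174 and 83. Leaving out CD153-Fc replicate 1 or 2 gave 4 and 7 higher, T104 replicate 1 or 2 gave 5 and 5, and combination replicate 1 or 2 gave 1 and 1, with 0 lower in each of these 6 fits. CCND2 was the call that was kept whichever of the 8 arrays was left out. IL17F and CXCL8 were kept in 6 of the 8 and lost without either combination array. TNFRSF9 was kept in 5, and was lost also without CD153-Fc replicate 1. RGS1 and SOD2 were kept in 3, those without an untreated array or CD153-Fc replicate 2. EBI3, CXCL10, CCL20, IL4I1, TRAF1, HEY1, RGS2, NINJ1, DRAM1 and GADD45A were each kept in 2 of the 8, those that left out an untreated array. Among the other settings of the processing, CXCL8, RGS1, CCND2, IL17F, EBI3 and TNFRSF9 kept their call in all that tested them. CCL20 kept it in 3 of 11, DRAM1, GADD45A and HEY1 in 6, RGS2 and TRAF1 in 7, NINJ1 and SOD2 in 9, and CXCL10 and IL4I1 in 9 of 10. Every one of the 19 stayed above 0 in all settings run.

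**Figure D3:**
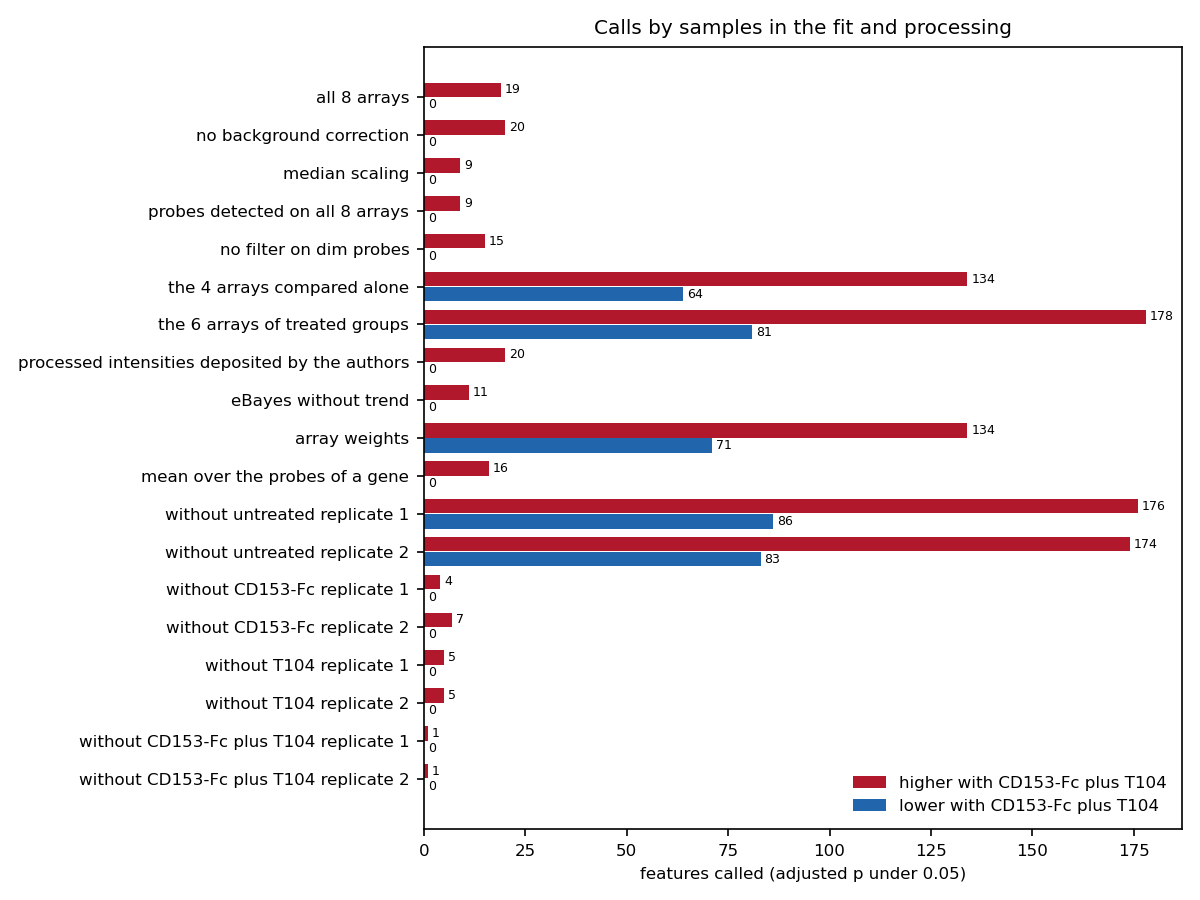
Number of features called (horizontal axis, adjusted p under 0.05) higher (red) and lower (blue) with CD153-Fc plus T104 than with CD153-Fc, for each choice of arrays and processing. Calls of lower features appear in the fits that drop or down-weight untreated arrays, 178 higher and 81 lower with the 6 treated arrays, against 19 higher and 0 lower with all 8.

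In the fit of the 6 treated arrays, which was planned as an alternative and whose named genes were picked by the same rule after values were seen, the calls included regulators of the pathway itself. Of the 178 features called higher, 26 were at least 2-fold, and of the 81 called lower, 7 were, with median changes of 0.67 and -0.67 log2. Median scaling turned the balance round, to 90 higher and 225 lower, while all 178 and all 81 kept their sign. Leaving out 1 of the 6 arrays left between 61 and 134 higher and between 6 and 71 lower, fewest without CD153-Fc replicate 1. Of the 178 and 81 calls, 58 and 4 were kept without the first CD153-Fc array, 75 and 12 without CD153-Fc replicate 2, 81 and 30 without combination replicate 1, 80 and 29 without combination replicate 2, and 134 and 61 without the one or the other T104 array. Of the added genes chosen by the rule, LTA, NFAT5, CDKN1A, TNIP1, BIRC2, IFNGR2, VIM, SLC16A14 and HNRNPA3 kept their call in all 6 of these fits, as did the pseudogene FTH1P3, and the others lost it in at least 1. CACUL1, CD82, CASP6, IFI16, MAP1LC3B, ANKRD37 and NDRG1 lost it in all 6. All adjusted p-values in the next paragraphs are from limma in this 6-array fit, and none of these added genes passed in the fit of all 8 arrays.

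**Figure D4:**
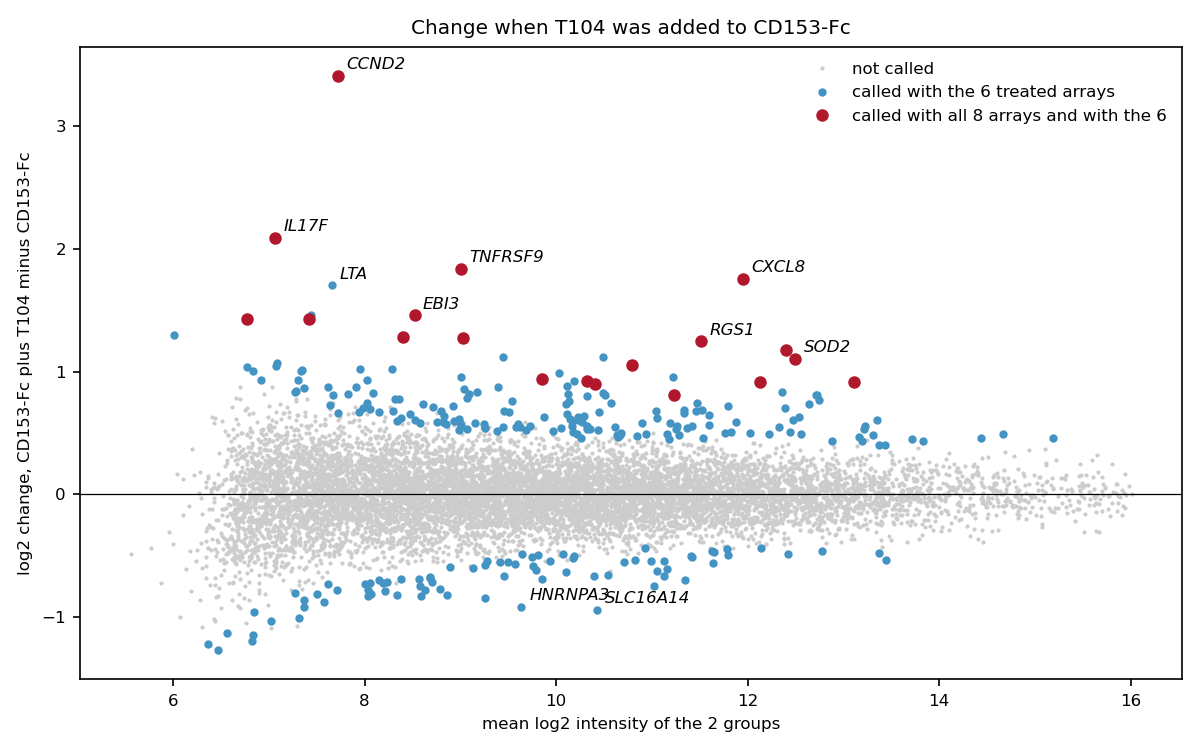
Log2 change of each feature, CD153-Fc plus T104 minus CD153-Fc (vertical axis), against its mean log2 intensity in the groups (horizontal axis). The 19 features called with all 8 arrays (red) are all above 0, and those called with the 6 treated arrays only (blue) lie on both sides.

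NF-kB regulators were called higher by less than 1 log2. Of 9 subunits and IkB proteins tested, 3 were called higher and none lower (33.3%, against 2.54% of all features), with a list median of 0.34 log2 against 0.00 for all features. NFKBIE and NFKBIA, which hold NF-kB in the cytoplasm, were called at 0.62 ± 0.14 (adjusted p = 0.0111) and 0.49 ± 0.11 log2. NFKB2, the subunit precursor processed in the NIK route, had 10.35 and 10.28 with the combination and 9.85 and 9.71 with CD153-Fc, a change of 0.54 ± 0.13 (adjusted p = 0.0221). Of 13 brakes of the pathway, TNIP1 and TNFAIP3, which act together on ubiquitin signals, were called at 0.82 ± 0.12 and 0.49 ± 0.11. TNIP1 had 10.94 and 10.87 with the combination and 10.11 and 10.06 with CD153-Fc. NFKB2 and TNFAIP3 were not called under median scaling (adjusted p = 0.0771 and 0.0509), where they stayed above 0. NFKBIE, NFKBIA, NFKB2 and TNFAIP3 were among the genes that lost their call in some fits with an array left out. Their changes in those fits ran from 0.45 to 0.78, 0.45 to 0.53, 0.47 to 0.60 and 0.48 to 0.49 log2. BIRC2, the ubiquitin ligase cIAP1 that keeps NIK low, was called at 0.95 ± 0.12, with 11.59 and 11.81 with the combination and 10.82 and 10.68 with CD153-Fc. A second, dimmer BIRC2 probe changed by 0.35 ± 0.14 and was not called, whereas a second NFKB2 probe was called at 0.64 ± 0.13. CFLAR, an inhibitor of death receptor caspases, was called at 0.74 ± 0.12. BIRC2 and CFLAR were the 2 called of 8 anti-apoptotic genes, and CASP6, an executioner caspase, was the 1 called of 15 pro-apoptotic genes (-0.55 ± 0.14). Of 2 dimmer CASP6 probes, neither called, one changed by -0.45 ± 0.20 and the other by 0.26 ± 0.23.

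More of the cytokine list was called in this fit, 8 of 13 higher and none lower (61.5%, against 2.54% of all features). The list median was 0.88 log2, and 0.78 under median scaling. The same detection filter applied, which genes silent without stimulation passed only through the groups where they were on. The share and the median of this list are therefore a description. The 3 added genes were LTA and LTB, the lymphotoxin subunits, and CCL5, a chemokine for T cells. LTA had 8.47 and 8.54 with the combination and 6.25 and 7.36 with CD153-Fc, a change of 1.70 ± 0.23 (adjusted p = 5.067e-05) with CD153-Fc arrays more than 1 log2 apart. LTB had 10.68 and 10.44 with the combination and 9.69 and 9.67 with CD153-Fc. CCL5 had 9.78 and 9.87 with the combination and 8.999 and 8.91 with CD153-Fc. Their changes were 0.88 ± 0.13 and 0.87 ± 0.13. Of the 24 receptor and RGS genes 6 were called higher and none lower, RGS1 and RGS2 and 4 receptors, with IFNGR2, a chain of the interferon gamma receptor, at 0.73 ± 0.11 and CCR7, a lymph node homing receptor, at 0.60 ± 0.12. The activation markers CD83 and CD82 were called at 0.65 ± 0.12 and 0.67 ± 0.18, and a second probe was called for CD83 (0.86 ± 0.12) and not for CD82 (0.02 ± 0.20). CD82 was not called under median scaling (adjusted p = 0.128). TNFRSF19, an orphan member of the TNF receptor family, was called lower at -0.77 ± 0.16, with 8.44 and 8.37 with the combination and 9.14 and 9.22 with CD153-Fc.

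In the transcription factor, stress and other lists taken next, the share called ran from 3.85% (unfolded protein response) to 15% (AP-1). Of all features 2.54% were called in this fit. Of 20 AP-1 and immediate early genes 3 were called higher, ATF3 (0.68 ± 0.12), BATF (0.56 ± 0.11) and IER3 (0.49 ± 0.12), beside a list median of 0.02 log2 that was -0.09 under median scaling. XBP1, a transcription factor of the unfolded protein response, was the 1 call of 26 on its list, with 13.23 and 13.02 with the combination and 12.14 and 12.50 with CD153-Fc (0.81 ± 0.13, adjusted p = 2.962e-04). A second XBP1 probe of nearly the same brightness changed by 0.05 ± 0.12 and was not called, so the XBP1 change rests on 1 of 2 probes. CDKN1A, the cell cycle inhibitor p21, had 10.08 and 9.92 with the combination and 8.64 and 9.12 with CD153-Fc. Its change was 1.12 ± 0.15 in this fit (adjusted p = 4.013e-05) and 1.12 ± 0.32 with all 8 arrays (adjusted p = 0.304) and its untreated arrays lay at 7.35 and 8.66. CCND2 and CDKN1A, which act in opposite ways on the cell cycle, were the 2 called of 24 cyclins, kinases and inhibitors. NFAT5, a factor of the osmotic stress response, had 7.97 and 8.36 with the combination and 6.96 and 6.45 with CD153-Fc, where it was not well above background, and was at least 2.52-fold higher (1.46 ± 0.22). ETV3L, of the ETS factor family, was called higher (adjusted p = 0.0122) but was not well above background on any array of the 2 groups, so no fold is given. DUSP1, a phosphatase that switches off MAP kinases, was the 1 call of 12 on its list (0.55 ± 0.13). STAT5A, a factor of cytokine receptor signalling, was the 1 call of 20 (0.53 ± 0.13), and CYP51A1, an enzyme of cholesterol synthesis, the 1 call of 22 (0.61 ± 0.16). MAP1LC3B, a protein of the autophagosome, was called beside DRAM1 among 23 autophagy genes (0.49 ± 0.13). IER3, DUSP1, STAT5A, CYP51A1 and MAP1LC3B were not called under median scaling (adjusted p of 0.0765, 0.0765, 0.0760, 0.111 and 0.129) and stayed above 0. Of 29 glycolysis and hypoxia genes VEGFA, ANKRD37, PFKFB4 and NDRG1 were called at 0.59, 0.58, 0.55 and 0.45 log2, and of these PFKFB4 kept its call under median scaling. A second, dim VEGFA probe changed by 0.24 ± 0.25.

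**Figure D5:**
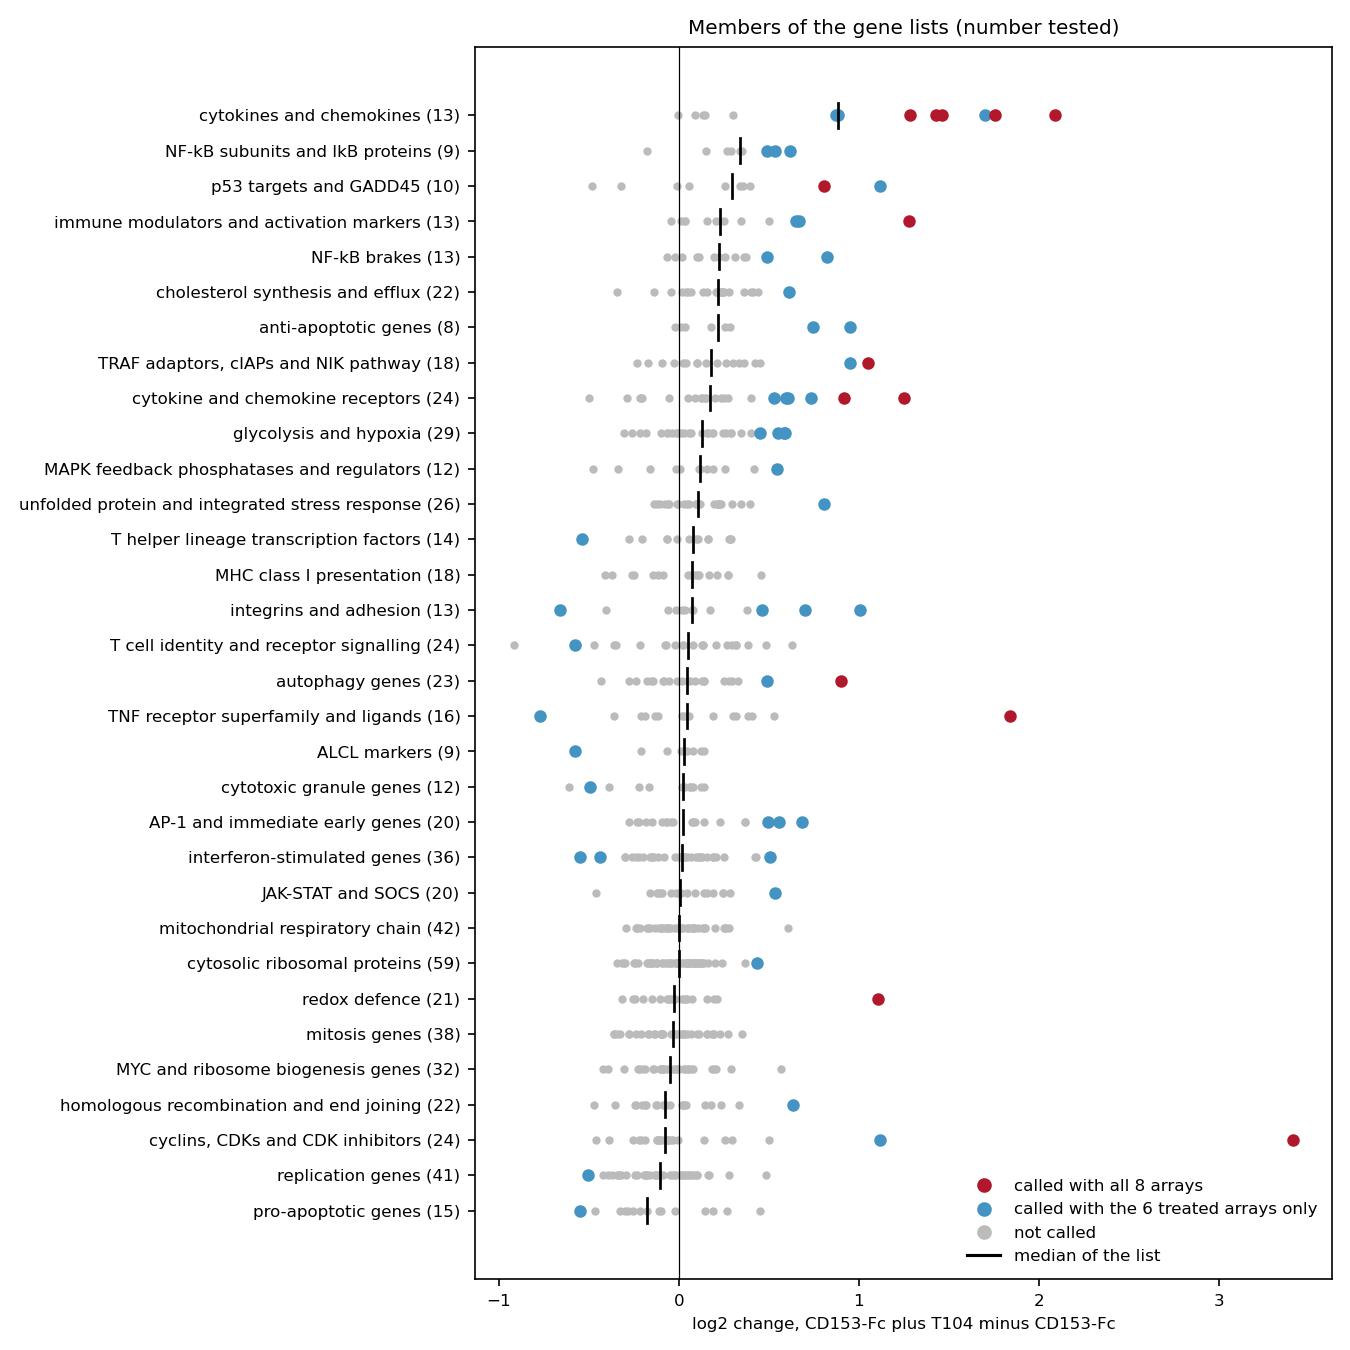
Log2 change, CD153-Fc plus T104 minus CD153-Fc (horizontal axis), of each tested member of the gene lists; red members were called with all 8 arrays, blue ones with the 6 treated arrays only, and bars are list medians. The cytokine list stands highest with a median of 0.88, and median scaling moves the change of a feature by a median of -0.11 (-0.14 to -0.07 from the 10th to the 90th percentile), so that 15 of the 26 list medians above 0, of 35 lists in all, then lie below it.

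Of the replication, mitosis, MYC and ribosomal protein lists, medians lay between -0.10 and 0.00 log2, lowest for replication genes. At an unadjusted p under 0.05 by limma, 868 of all 10183 features were higher and 765 lower with the 6 arrays. With all 8 arrays, 428 were higher and 390 lower. Of 41 replication genes 0 were higher and 9 lower unadjusted with the 6 arrays, and 0 and 4 with all 8. The median of these genes was -0.10 log2, and -0.16 under median scaling. After adjustment the uracil glycosylase UNG was called lower in the 6-array fit (-0.51 ± 0.13), a call kept without 1 of the 6 arrays and lost without each of the other 5. Of 38 mitosis genes 0 were called by limma in either fit, with 0 higher and 1 lower at an unadjusted p under 0.05 with all 8 arrays and 1 higher and 4 lower with the 6, and the median was -0.03 log2. The smallest p among them with all 8 arrays was that of DLGAP5, a spindle protein (-0.36 ± 0.14, adjusted p = 0.532). Of 32 MYC and ribosome biogenesis genes 0 were called in either fit, with 0 higher and 2 lower unadjusted with all 8 arrays and 2 higher and 3 lower with the 6, and 2 lower after adjustment under median scaling of the 6. Their median was -0.05 log2, and -0.13 under median scaling. The smallest p with all 8 arrays was that of HSPE1, a mitochondrial chaperonin (-0.39 ± 0.12, adjusted p = 0.379), whose second probe changed by -0.10 ± 0.17. Of 59 ribosomal proteins RPL21, a gene with many near-identical pseudogenes, was called higher in the 6-array fit (0.44 ± 0.11), beside 2 higher and 6 lower unadjusted. Under median scaling RPL21 was not called (adjusted p = 0.0891 by limma). MYC had 12.14 and 12.01 with the combination and 12.12 and 12.33 with CD153-Fc, groups that overlap (-0.15 ± 0.14), and its second probe changed by 0.21 ± 0.25. Among 42 respiratory chain genes 0 were called by limma, with 3 higher and 3 lower unadjusted in the 6-array fit, and among 18 MHC class I genes 0 were called, with 2 higher and 2 lower unadjusted. The smallest p with all 8 arrays was that of NDUFS1, a subunit of complex I, on the first list (0.61 ± 0.21, adjusted p = 0.426) and of PSME2, a proteasome activator subunit, on the second (-0.37 ± 0.14, adjusted p = 0.498).

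The features called lower and higher had medians of like size, given above, but both passed the same threshold on p, so this is a description. Of the 178 called higher 26 were at least 2-fold, and of the 81 called lower 7 were. The largest rise of any feature was 3.41 log2 and the largest fall -1.27. Of the 81, 66 were detected on both arrays of both groups, 14 were not well above background on either combination array, and 1 was detected on 1 of the 2. Among the bright ones, SLC16A14, a member of the monocarboxylate transporter family, had 9.69 and 10.22 with the combination and 10.90 and 10.89 with CD153-Fc (-0.94 ± 0.15, adjusted p = 3.305e-04). A second, dimmer SLC16A14 probe changed by -0.14 ± 0.17 and was not called. HNRNPA3, an RNA-binding protein, had 9.19 and 9.16 with the combination and 10.15 and 10.03 with CD153-Fc (-0.92 ± 0.13, adjusted p = 8.155e-05). The calcium channel subunits CACNA2D4 and CACNA1C were called at -0.85 ± 0.16 and -0.83 ± 0.16, and the secretory GTPase RAB27B at -0.82 ± 0.21. RREB1, a zinc finger transcription factor, was called at -0.83 ± 0.18, and its second, dim probe changed by -0.46 ± 0.30. TUBGCP5, a protein of the gamma-tubulin complex, had 8.05 and 8.86 with the combination and 9.09 and 9.46 with CD153-Fc (-0.82 ± 0.19). QPCTL, RARRES1, FAM161B and KLHL14 were below detection on both combination arrays, with bounds of at least 1.497-fold lower for QPCTL, a Golgi glutaminyl cyclase, 1.31-fold lower for RARRES1, 1.29-fold for FAM161B and 1.08-fold for KLHL14. PWP2, HNRNPA3P1, PPP2R5C and CACUL1 were not well above background with the combination and gave no bound above 1.

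The T cell identity list moved in both directions. Of its 24 genes 1 was called, CD4, lower (4.17%, against 2.54% of all features), while 14 lay above 0, or 10 under median scaling. At an unadjusted p under 0.05, 5 of the list were higher and 5 lower, against 868 and 765 of all 10183 features. CD4, the co-receptor, had 8.99 and 8.95 with the combination and 9.44 and 9.66 with CD153-Fc (-0.58 ± 0.14, adjusted p = 0.0241). The smallest p of the list with all 8 arrays was that of PTPN22, a phosphatase that restrains T cell receptor signals, at -0.92 ± 0.30 (adjusted p = 0.418). PTPN22 had 6.19 and 6.25 with the combination, where it was not well above background, and 7.37 and 6.91 with CD153-Fc. MYB, a factor of immature and proliferating cells, had 13.29 and 13.06 with the combination and 13.67 and 13.75 with CD153-Fc (-0.54 ± 0.12), and was the 1 call of 14 T helper lineage factors. ITGA4, an integrin chain for homing, had 10.26 and 10.16 with the combination and 10.99 and 10.75 with CD153-Fc (-0.66 ± 0.13). In the same adhesion list of 13, 3 genes were called higher, among them VIM, an intermediate filament protein (0.70 ± 0.12, with 12.67 and 12.80 with the combination and 12.09 and 11.99 with CD153-Fc), whose second probe was called at 0.69 ± 0.12. The others were the metalloproteases ADAM19 (0.46 ± 0.12) and ADAM8. ADAM8 had 7.28 and 7.39 with the combination and 5.93 and 6.73 with CD153-Fc. It was detected on 1 of these 4 arrays, a CD153-Fc array, and so on neither combination array. Neither ADAM19 nor ADAM8 was called under median scaling (adjusted p = 0.0937 and 0.0662). The protease CTSC, which activates granzymes, was called at -0.50 ± 0.12 and the inhibitory receptor KLRC1 at -0.63 ± 0.13. The 2 other CTSC probes were not called (each -0.32), and of the 2 other KLRC1 probes 1 was (-0.57 ± 0.15). KLRC1 was the 1 natural killer cell marker of 10 detected on both arrays of every group, and the summed intensity of that list was 1936 and 2059 with the combination and 2318 and 2612 with CD153-Fc. That sum includes KLRC1 itself, so it is not a separate measure of the fall. The samples were cultures of a cell line, the part of such cells in these falls was not tested, and NCAM1, KLRF1 and NCR1 were detected on no array. Of 36 interferon-stimulated genes ISG20 was called higher (0.51 ± 0.13) and XAF1 and IFI16 lower (-0.55 ± 0.14 and -0.44 ± 0.12), and a second, dim XAF1 probe changed by 0.15 ± 0.27. ISG20 was not called under median scaling (adjusted p = 0.0972).

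In the same 6-array calls, promoters were searched for named genes alone, 145 called higher and 65 lower, and a gene can have several promoters. The NF-kB consensus occurred in 32 of 164 promoters (19.5%) of genes called higher and in 7 of 81 promoters (8.64%) of those called lower. It occurred in 13.3% of promoters of all named genes tested. The AP-1 motif occurred in 6.1% and 6.17%, beside 5.08%. Set beside cells without ligand, 150 of the 178 features called higher (84.3%) and 68 of the 81 called lower (84%) had the same sign in T104 minus untreated, where 60.8% of all features had. The change was smaller with ligand for 118 of the 178 and for 35 of the 81, and for 6808 of all 10183 features. For 94 of the 178 the mean with the combination lay above the mean with T104, unlike most of the 19 calls. This position was not tested.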

How the data were processed

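The authors deposited unnormalized probe intensities on a linear scale, with a detection p-value per probe and array, which the authors' software gives by ranking a probe among negative controls. They also deposited processed intensities, which served as an alternative. Column medians of that table were 119.692 and 119.717 with the combination, 119.685 and 119.695 for CD153-Fc, 119.704 and 119.694 for T104, and 119.697 and 119.712 for untreated cells. Its values were linear, correlating at r of at least 0.999553 per array with the unprocessed log2 values. How it was normalized stays unknown, and direction has no meaning in 1-colour data. BeadStudio is named in the series design and GenomeStudio in the submitters' processing notes, without versions.

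In R 4.3.3, limma 3.58.1 neqc (background from detection p-values, offset 16, quantiles) gave log2 values from the deposited intensities. Probes detected (p under 0.01) on at least 2 of 8 arrays were kept, 12543 of 48797. The brightest probe stood for each of 8509 named genes, and 1674 unnamed probes stood for themselves. Of all probes, 28093 had 1 symbol, 13 several and 20691 none in the platform annotation, updated through RefSeq GRCh38.p14. The linear model in limma had 1 coefficient for each group, used eBayes with trend and took all 8 arrays (4 residual and 8.78 prior degrees of freedom). The fit of the 6 treated arrays had 3 and 22.5. A fold against a group below detection on both arrays is a bound: per array, the dimmer value is the lowest signal of any detected probe, or that of the probe itself if higher.

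By rule, the text names the 15 called genes that rose most and the 15 that fell most, up to 4 called members of each list (all where 5 or fewer), the member of smallest p of a list without calls in the fit of all 8 arrays, 6 fixed genes, and 10 genes by the test of the difference. Calls of the 6-array fit were named by the first 2 parts of the rule. A second probe was taken from a fit over all kept probes. Members named beyond this were chosen after their values were seen. The members, the 35 lists (988 genes, 925 with a probe, 689 tested) and the tests were chosen with earlier results of these data known. Alternatives were background, scaling, filter, arrays in the fit, processed values, replicate block, trend, array weights, probes per gene and each array left out. The number of arrays limits the precision, and p-values measure only the spread between these duplicates. The model was tested on simulated data.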

Additional observations from a re-analysis of the deposited data

Results flagged for a closer look

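In 22 named genes the change with T104 differed between cells with and without ligand (limma test of the difference, Benjamini-Hochberg adjusted p under 0.05). The value given is the log2 change with ligand (CD153-Fc plus T104 minus CD153-Fc) minus that without (T104 minus untreated). CCND2, IL4I1, TNFRSF9, EBI3 and CXCL10 were detected on neither untreated array, and CCND2 on neither CD153-Fc array. Their values therefore rest in part on signal not well above background. Among secreted factors it was -4.62 for CXCL8, -1.84 for EBI3, -1.77 for CCL20 and -1.56 for CXCL10. Among receptors and cell surface proteins it was -2.87 for CXCR4, -2.83 for CD83, -2.81 for TNFRSF9 and -1.95 for NINJ1. Among NF-kB pathway genes it was -2.7 for TRAF1, -2.39 for RELB, -2.3 for NFKBIA, -2.26 for NFKB2, -2.24 for TNFAIP3 and -1.49 for TNIP1. Of the other genes it was -3.29 for IL4I1, -2.91 for DRAM1, -2.86 for RGS1, -2.07 for SOD2, -1.8 for GADD45A, -1.39 for CCND2 and -1.12 for ATF3. XRCC2 was the 1 above 0, at 1.56, with changes of 0.63 with ligand and -0.92 without. In each of the other genes the mean with CD153-Fc lay above that of untreated cells. In each of them the mean with the combination lay below that with T104.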

How the results depend on the processing

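All 19 calls stayed above 0 in every setting. Against CD153-Fc the combination had 20 higher calls without background correction and with the authors' processed values, 9 with median scaling, 9 with probes detected on all 8 arrays (12 of the 19 tested), 15 without a filter, 11 without trend and 16 with the mean over probes, each with 0 lower. Higher and lower calls were 134 and 64 with the 4 arrays, 178 and 81 with the 6 treated arrays, and 134 and 71 with array weights, where untreated arrays weighed 0.36 against 1.23 to 1.61. Leaving out 1 array gave 1 to 176 higher and 0 to 86 lower. The replicate block gave 13 higher and 0 lower, 12 of them among the 19, and 199 and 99 with the 6 arrays; replicate differences of the compared groups correlated at r = -0.0056 (-0.0987 to 0.0072 over all pairs of groups), so the numbers were not taken as a pairing. At an unadjusted p under 0.05, median scaling gave 167 higher and 725 lower.

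With the 6 treated arrays, calls were 90 and 225 with median scaling and 61 and 30 without trend, and leaving out 1 array gave 61 to 134 higher and 6 to 71 lower. T104 against untreated cells (520 higher, 551 lower) gave 317 and 910 with median scaling and 336 lower with array weights, and 187 to 1740 higher and 99 to 1679 lower with 1 array left out. The difference of the changes (136) gave 74 with median scaling, 83 without a filter, 90 without trend, 223 with array weights, and 26 to 1722 with 1 array left out. Signs turned in uncalled genes: ALK at -0.0166 with median scaling and -0.085 to 0.176 with 1 array left out, MYC at 0.030 with the mean over probes, and CXCR4 at -0.115 to 0.401 with 1 array left out. The causes were not tested beyond the arrays or probes each setting drops. Features near the detection limit (log2 7.42 and 7.44 on the combination arrays, 7.003 and 6.67 on the CD153-Fc arrays) are measured with little signal over background.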

Other observations

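HNRNPA3 was lower on the 2 combination arrays (9.19 and 9.16 log2) than on both CD153-Fc arrays (10.15 and 10.03), and the T104 arrays averaged 10.16. Untreated cells averaged 9.16 with arrays at 8.55 and 9.77.

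Of the B cell markers, CD24 was singled out after its values were seen. Its 2 probes read 130 and 1336 (unnormalized intensity, replicates 1 and 2) and 99.1 and 105 with the combination, and 148 and 115 and 117 and 95.8 with CD153-Fc, so 1 probe on 1 combination array stood apart.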
